A study of Mus musculus with 15 samples.

Results

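The 10 genes described here carry the acid-base work of the kidney's intercalated cells, the acid- and base-secreting cells of the collecting duct: the proton pump subunits Atp6v1b1, Atp6v0d2 and Atp6v1g3, the anion exchangers Slc4a1, Slc26a4 and Slc4a9, the ammonia channels Rhcg and Rhbg, the carbonic anhydrase Car2 and the transcription factor Foxi1. They were chosen by symbol, all 10 were found among the 19602 genes of the deposited table, and all 10 passed the filter on low values. RNA was measured in whole mouse kidneys in 15 libraries of 4 groups: Tert+/+ mice (here WT) given vehicle (n = 4), WT mice given folic acid (n = 3), third-generation Tert-/- mice (here G3) given vehicle (n = 4) and G3 mice given folic acid (n = 4). Mice of both sexes, 6 to 8 weeks old, had 1 intraperitoneal injection of folic acid at 125 mg/kg or of 0.3 M sodium bicarbonate (200 ul), and kidneys were perfused with cold saline and taken at day 14. Folic acid injures tubules, and Tert-/- mice lack the catalytic subunit of telomerase in every cell, so telomeres shorten over generations. The vehicle is itself a base, and no uninjected group was analysed here. What the folic acid was dissolved in is not given here, so a difference in base load between the treatments is not implied.

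Intercalated cells acidify or alkalinise urine. Type A cells secrete protons through a V-type proton pump in the apical membrane and return bicarbonate to blood through Slc4a1 (AE1, band 3), while type B cells secrete bicarbonate through Slc26a4 (pendrin) and carry Slc4a9 (AE4). Car2 makes protons and bicarbonate from carbon dioxide and water, Rhbg and Rhcg pass ammonia towards the urine, and Foxi1, a forkhead transcription factor, is needed for intercalated cells to form and switches on several of the other genes.

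Because Foxi1 belongs to the same set, the stretch before the transcription start was searched for a core forkhead site in the 5 genes for which RefSeq (GRCm38.p6) gave a promoter: Atp6v1b1, Atp6v1g3, Slc26a4, Foxi1 and Rhcg. The letters TGTTTAC, or GTAAACA on the other strand, with overlaps allowed, occurred once, in Atp6v1b1 at chr6:83742919-83742925, from 98 to 92 bases before the start. Of all 32851 RefSeq promoters, 1040 (3.17%) held the motif in the same 250 bases. The Atp6v1b1 sequence (chr6:83742767-83742966, plus strand) is shown with the match in capitals, since Atp6v1b1 has 2 of the 3 called differences below. That of Slc26a4 (chr12:31560035-31560234, minus strand), the gene whose level went most closely with Foxi1, is shown beside it and holds no match. Each run is 200 bases, ends 50 bases before the RefSeq start and is written 5′ to 3′.
Atp6v1b1: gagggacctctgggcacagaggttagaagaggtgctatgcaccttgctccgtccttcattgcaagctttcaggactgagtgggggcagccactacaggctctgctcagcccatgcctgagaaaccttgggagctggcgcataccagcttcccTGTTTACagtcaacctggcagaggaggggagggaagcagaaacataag
Slc26a4: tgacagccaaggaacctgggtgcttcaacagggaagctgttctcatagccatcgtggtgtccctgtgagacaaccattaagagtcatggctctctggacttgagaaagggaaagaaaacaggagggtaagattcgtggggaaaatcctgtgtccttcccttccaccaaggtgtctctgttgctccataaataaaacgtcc

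Levels are normalised counts: reads assigned to a gene, divided by 1 size factor per library. Libraries held 5014684 to 6609307 reads (median 6091019), and 1 read was worth 0.895 to 1.13 normalised counts. Features of 2 kinds touch the results on these genes. First, Y-linked RNA (Uty, Ddx3y, Eif2s3y and Kdm5d summed) went with the groups and, in 10 of the 15 libraries, with Xist against the labelled sex: it was 283 to 867 in WT vehicle, 9.53 to 29.5 in WT folic acid, 0.977 to 7.57 in G3 vehicle, and 694, 15.0, 668 and 273 in G3 folic acid 1 to 4. WT vehicle 2 and G3 folic acid 4 held both Xist and Y-linked RNA, and in 3 libraries (G3 vehicle 3, G3 folic acid 1 and WT folic acid 1) the label and the RNA went together. No WT vehicle library lacked Y-linked RNA and no WT folic acid or G3 vehicle library held more than a trace, so sex and group cannot be told apart in folic acid against vehicle in WT, nor in G3 against WT after vehicle. Second, WT folic acid 1 carried 23.0% of its values in 1 gene, Gm42418 (4.85% to 8.15% elsewhere), and was the lowest of the 15 libraries for 7 of the 10 genes, against 14.8% of all tested genes. Tert RNA was low in every library (2.93 to 22.6), and with no map of the deletion in the labels it checks none of them. Replicate numbers follow accession order. Nothing in the labels beyond separate sample entries says that libraries came from separate animals, so p-values measure only the spread between these libraries.

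Of 50 differences (10 genes in 5 comparisons), 3 passed limma's test at an adjusted p under 0.05 over 14651 genes. Atp6v1b1 rose after folic acid in WT and was higher in G3 than in WT after vehicle, and Slc4a1 was lower in G3 than in WT after folic acid. After folic acid in WT 1 of the 10 genes was called, against 5.06% of all tested genes, and 1 had groups that did not overlap, against 19.9%. In G3 folic acid gave 0 calls among the 10 genes, against 0.273% of all genes, and 1 gene without overlap, against 7.75%. For G3 against WT after vehicle 1 was called, against 2.9%, and 2 did not overlap, against 11%. After folic acid 1 was called, against 2.3%, and 1 did not overlap, against 17.3%. The difference between the folic acid effects was called for 0 of the 10, against 3.82% of all genes. In the comparison within G3 limma gave 0 of the 10 genes an unadjusted p under 0.05, and for the difference between the effects 1, Atp6v1b1. In 12 libraries edgeR called 0 of the 10 in each comparison, and DESeq2 called Atp6v1b1 after folic acid in WT, Slc4a1 in G3 against WT after folic acid, and no other. These comparisons share groups: WT vehicle, for example, enters both differences of Atp6v1b1.

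**Figure D1:**
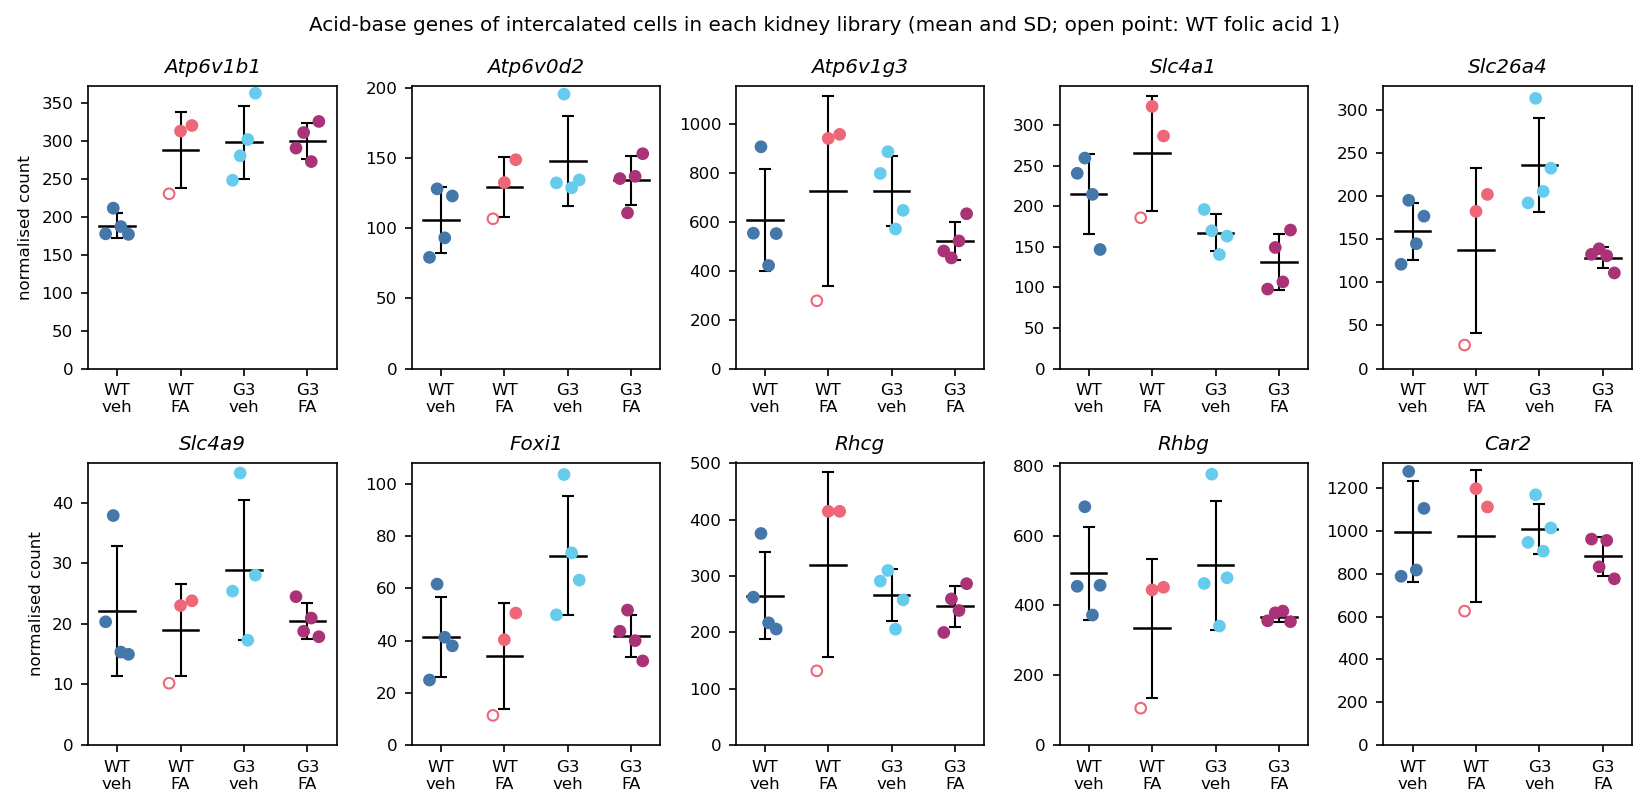
Normalised count (vertical axis, linear, from 0) of each of the 10 genes in each library, by group (veh, vehicle; FA, folic acid), with the mean as a bar and the SD as whiskers; the open point is WT folic acid 1. In Atp6v1b1 the 4 WT vehicle libraries (177 to 211) lie below all others, and in 7 panels the open point is the lowest of the 15.

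Atp6v1b1 (chromosome 6, 83742990 to 83758855, plus strand, GRCm38) encodes the B1 subunit of the pump's catalytic head, the form found in intercalated cells. Its normalised count was 178, 211, 187 and 177 in WT vehicle 1 to 4, and 230.3, 313 and 320.3 in WT folic acid 1 to 3. It was 248, 280.4, 302 and 363 in G3 vehicle and 290.5, 311, 273 and 326 in G3 folic acid. All 4 WT vehicle libraries were therefore lower than all 11 others, while the other 3 groups overlapped one another. The means were 188 ± 16.1 (SD, n = 4), 288 ± 49.95 (SD, n = 3), 298 ± 48.3 (SD, n = 4) and 299.96 ± 23.2 (SD, n = 4) in the same order.

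Folic acid was followed by a 1.51-fold rise of Atp6v1b1 in WT (log2 0.60, SE 0.15, 95% interval 0.29 to 0.91, limma adjusted p = 0.0312), and G3 exceeded WT 1.57-fold after vehicle (log2 0.65, SE 0.14, interval 0.36 to 0.94, limma adjusted p = 0.0175). The difference between the 2 folic acid effects, G3 minus WT, was log2 -0.58 (SE 0.20, limma adjusted p = 0.135). In a whole kidney, fewer cells of a type and less RNA per cell cannot be told apart. With Y-linked RNA as a term the differences were log2 0.37 (limma adjusted p = 0.981) and 0.42 (limma adjusted p = 0.805). With the labelled sex instead they were 0.52 (limma adjusted p = 0.0984) and 0.56 (limma adjusted p = 0.162). Among libraries rich in Y-linked RNA and low in Xist the counts were 178, 187 and 177 in WT vehicle 1, 3 and 4 and 290.5 and 273 in G3 folic acid 1 and 3, a pair of groups that differ in both genotype and treatment. In the 2 libraries with both they were 211 (WT vehicle 2) and 326 (G3 folic acid 4). The call in WT was lost without WT vehicle 1, 3 or 4 (log2 0.57, 0.60 and 0.57) or WT folic acid 2 or 3 (0.53 and 0.51). The call after vehicle was lost without WT vehicle 1 or 4 (log2 0.63 and 0.62) or G3 vehicle 3 or 4 (0.64 and 0.55).

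**Figure D2:**
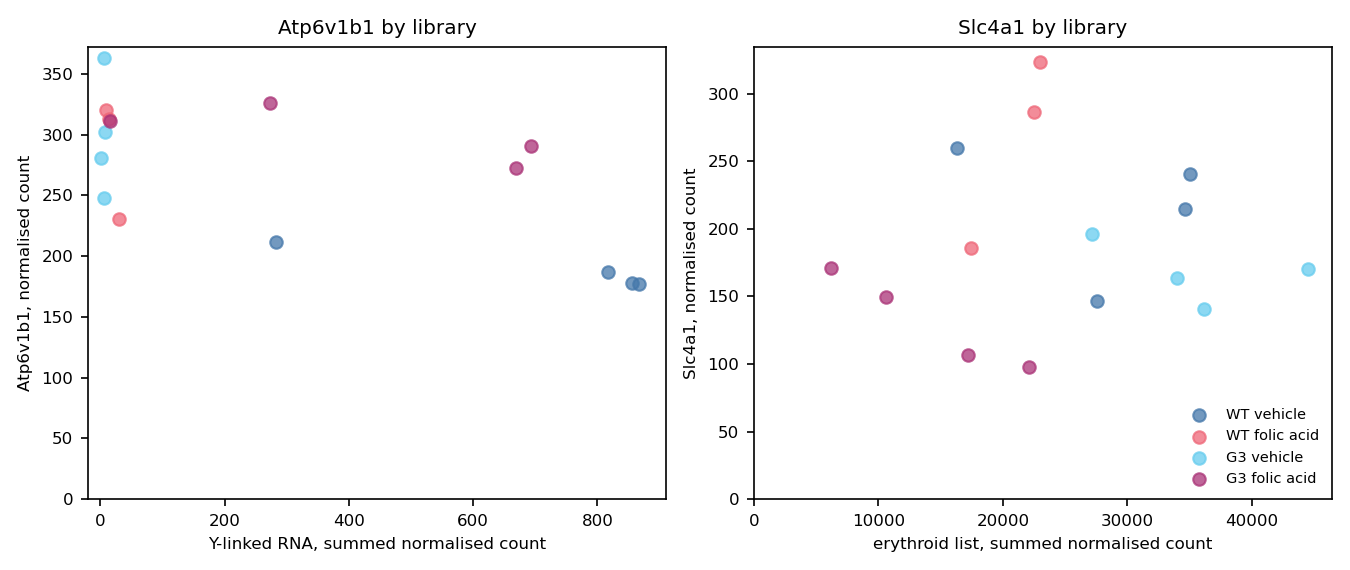
Left, normalised count of Atp6v1b1 (vertical axis) against the summed normalised count of 4 Y-linked genes (horizontal axis) in each of the 15 libraries; right, Slc4a1 against the summed normalised count of the erythroid list, with colours for the 4 groups. On the left the WT vehicle points have 283 to 867 of Y-linked RNA and are lowest in Atp6v1b1, and G3 folic acid 1 and 3, at 694 and 668 of Y-linked RNA, lie above them in Atp6v1b1; on the right the 2 highest Slc4a1 points, WT folic acid 2 and 3, lie in the middle of the erythroid range.

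Atp6v0d2 (chromosome 4, 19876841 to 19922605, minus strand) encodes the d2 subunit of the pump's stalk. Its normalised count was 79.2, 128, 93.1 and 123 in WT vehicle, and 107, 132 and 149 in WT folic acid. In G3 it was 132, 195, 129 and 134 after vehicle, and 135, 111, 137 and 153 after folic acid. The lowest G3 vehicle library was just above the highest WT vehicle library, so these groups did not overlap. The difference, log2 0.48 (SE 0.18), did not pass (limma adjusted p = 0.165). G3 vehicle 2 stood apart from the other 3 of its group.

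Atp6v1g3 (chromosome 1, 138273738 to 138289462, plus strand) encodes the G3 subunit of the pump, another form restricted to few tissues. Its normalised count was 553, 906, 421 and 551 in WT vehicle, and 277, 941 and 957 in WT folic acid. In G3 it was 797, 886, 570.2 and 646 after vehicle, and 480.2, 452, 521 and 632 after folic acid. WT folic acid held both the lowest library and the 2 highest of the 15. G3 against WT after folic acid was log2 -0.28 (SE 0.34, limma adjusted p = 0.678), and log2 -0.87 without WT folic acid 1, which passed (limma adjusted p = 0.0478). The difference between the folic acid effects was log2 -0.57 (SE 0.46, limma adjusted p = 0.58), and -1.16 without that library (limma adjusted p = 0.0426).

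Each of these subunits has a partner gene expressed in most cells: Atp6v1b2, Atp6v0d1 and Atp6v1g1. None of the 3 was called by limma in any of the 5 comparisons, with 1 at an unadjusted p under 0.05 after folic acid in WT (Atp6v1g1) and 1 in G3 against WT after folic acid (Atp6v1b2). After folic acid in WT Atp6v1b2 was log2 -0.33 (limma adjusted p = 0.426) and Atp6v1g1 log2 -0.67 (limma adjusted p = 0.0519). The ratio of the normalised counts of Atp6v1b1 and Atp6v1b2 was 0.217 to 0.507 in WT vehicle, 0.509 to 0.644 in WT folic acid, 0.362 to 0.512 in G3 vehicle and 0.301 to 0.505 in G3 folic acid, a description with no test. WT vehicle 2 had the highest ratio of its group. Of the 19 other pump genes, 1 was called in any comparison: Atp6v0c, the proton-carrying ring subunit, fell in WT after folic acid (log2 -0.74, SE 0.17, limma adjusted p = 0.0259). The median over those 19 was log2 -0.29 in that comparison, against 0.01 over all genes, and -0.03, -0.07, 0.12 and 0.17 in the others.

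Slc4a1 (chromosome 11, 102348824 to 102366203, minus strand) was the only exchanger of the 10 genes called. Its normalised count was 241, 259.7, 215 and 147 in WT vehicle and 186, 323 and 287 in WT folic acid. It was 196, 169.99, 141 and 163 in G3 vehicle and 98.0, 149, 107 and 171 in G3 folic acid. All 3 WT folic acid libraries were higher than all 4 G3 folic acid libraries, and no other pair of groups compared was free of overlap. The means were 216 ± 49.4 (SD, n = 4), 265 ± 71.2 (SD, n = 3), 168 ± 22.9 (SD, n = 4) and 131 ± 34.6 (SD, n = 4). After folic acid Slc4a1 was 2.01-fold lower in G3 than in WT (log2 -1.01, SE 0.23, 95% interval -1.50 to -0.52, limma adjusted p = 0.0332). Within G3 folic acid against vehicle was log2 -0.38 (SE 0.22, limma adjusted p = 0.47), and the difference between the folic acid effects was -0.67 (SE 0.32, limma adjusted p = 0.299).

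The call for Slc4a1 was lost with Y-linked RNA as a term (log2 -0.65, limma adjusted p = 0.374) and kept with the labelled sex (log2 -0.97, limma adjusted p = 0.0435). G3 folic acid 2, which lacks Y-linked RNA as the WT folic acid libraries do, was at 149, below their lowest of 186. G3 folic acid 1 and 3, rich in Y-linked RNA and low in Xist, were lower, at 98.0 and 107. G3 folic acid 4, with both, was at 171. In WT vehicle 1, 3 and 4, also rich in Y-linked RNA and low in Xist, Slc4a1 was at 241, 215 and 147. The part of sex in the Slc4a1 difference was not tested further. The call was also lost without WT folic acid 2 or 3 (log2 -0.85 and -0.93) or G3 folic acid 1 or 3 (-0.88 and -0.92). Without WT folic acid 1 it was log2 -1.25 (limma adjusted p = 0.0141).

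Slc4a1 and Car2 are red cell genes as well, so erythroid RNA is set beside them. Of 10 erythroid genes listed, 9 were in the table and 5 passed the filter (4 haemoglobin genes and Alas2, the first enzyme of haem synthesis in red cells). The red cell membrane genes Epb42 and Rhag were at 0 to 6.81 and 0 to 2.68 over the 15 libraries. The erythroid sum was 16311 to 35070 in WT vehicle, 17472 to 23010 in WT folic acid, 27158 to 44538 in G3 vehicle and 6183 to 22089 in G3 folic acid. Hba-a2 and Alas2 fell in G3 after folic acid (log2 -1.53, limma adjusted p = 0.0377, and log2 -1.56, limma adjusted p = 0.0252). In G3 against WT after folic acid, the comparison in which Slc4a1 was called, they were 2.14-fold and 2.13-fold lower (log2 -1.10 and -1.09, limma adjusted p = 0.0660 and 0.0572), without overlap of the groups but short of the threshold. The difference between the folic acid effects was called for Alas2 (log2 -1.54, limma adjusted p = 0.0370). Within G3 folic acid the libraries with the lowest erythroid sums, 4 and 2, had the highest Slc4a1. Libraries 4 and 2 were also the ones of that group that held Xist. The part of red cells in the Slc4a1 difference was not tested. Aqp6, a channel of type A cells that is not on the erythroid list, was 229, 308 and 268 in WT folic acid and 159.8, 256, 166 and 253 in G3 folic acid, and was not called. A type A list was also summed (Slc4a1 itself, Aqp6, Kit, Dmrt2 and Adgrf5). Its normalised counts added to 1119 to 1327 in WT folic acid and 709 to 1004 in G3 folic acid, without overlap. After vehicle the sum was 773 to 1203 in WT and 906 to 1245 in G3, which overlapped. The sum was not tested. The ratio of the normalised counts of Slc4a1 and Aqp6 was 0.812 to 1.07 in WT folic acid and 0.585 to 0.675 in G3 folic acid, without overlap. After vehicle it was 0.807 to 1.51 in WT and 0.492 to 0.841 in G3, which overlapped.

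Slc26a4 (chromosome 12, 31519827 to 31559969, minus strand), the apical exchanger of type B cells, had a normalised count of 121, 195, 145 and 177 in WT vehicle and 27.2, 182 and 202 in WT folic acid. It was 192, 314, 206 and 233 in G3 vehicle and 133, 139, 131 and 111 in G3 folic acid. All 4 G3 vehicle libraries exceeded all 4 G3 folic acid libraries, and WT folic acid 1 was far below every other. Folic acid against vehicle in G3 was log2 -0.85 (SE 0.42, 95% interval -1.75 to 0.04), which did not pass over all genes (limma adjusted p = 0.389). Without WT folic acid 1, which takes no part in that comparison but adds to the shared estimate of the spread, the same log2 -0.85 was called (limma adjusted p = 0.0137), and with only the 2 compared groups as well (limma adjusted p = 0.0277). The difference between the folic acid effects was log2 -0.22 (SE 0.62, limma adjusted p = 0.906), and -1.14 without WT folic acid 1 (limma adjusted p = 0.0251). It changed sign with the labelled sex (0.61) or Y-linked RNA (0.18) as a term.

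Slc4a9, the basolateral exchanger of type B cells on chromosome 18, had the fewest reads of the 10 genes, 9 to 46 per library. After vehicle its mean normalised count was 22.2 ± 10.8 (SD, n = 4) in WT and 28.9 ± 11.6 (SD, n = 4) in G3. After folic acid it was 19.03 ± 7.64 (SD, n = 3) and 20.5 ± 2.95 (SD, n = 4). Groups overlapped in every comparison, and no difference passed the test. WT vehicle 2 (37.9) and G3 vehicle 2 (44.9) were the 2 highest.

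Foxi1 (chromosome 11, 34204338 to 34208089, minus strand) had a normalised count of 24.9, 61.6, 41.3 and 38.0 in WT vehicle and 11.3, 40.3 and 50.5 in WT folic acid. It was 49.8, 104, 73.6 and 63.1 in G3 vehicle and 43.6, 51.7, 40.0 and 32.2 in G3 folic acid. The order of the means was G3 vehicle (72.5 ± 22.9, SD, n = 4), G3 folic acid (41.9 ± 8.08, SD, n = 4), WT vehicle (41.4 ± 15.2, SD, n = 4) and WT folic acid (34.1 ± 20.3, SD, n = 3), and the last 3 lay within their spread. G3 against WT after vehicle was log2 0.81 (SE 0.37, limma adjusted p = 0.261). Folic acid against vehicle in G3 was log2 -0.75 (SE 0.37, limma adjusted p = 0.391). Each of those pairs of groups overlapped in 1 or more libraries, and neither difference passed.

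Rhcg (chromosome 7, 79593363 to 79617657, minus strand), the ammonia channel found on both membranes, was 262, 375, 217 and 206 in WT vehicle and 132, 415 and 415 in WT folic acid. It was 291, 309.7, 206 and 258 in G3 vehicle and 199.7, 259, 239 and 286 in G3 folic acid, as normalised counts. WT folic acid alone spanned the whole range of the 15 libraries. Rhbg (chromosome 3, 88242874 to 88254709, minus strand), the basolateral channel, was 455, 682, 372 and 458 in WT vehicle and 106, 444 and 452 in WT folic acid. It was 463, 776, 341 and 479 in G3 vehicle and 356, 379, 384 and 353 in G3 folic acid. G3 folic acid was the most even of the groups for Rhbg, with a mean of 368 ± 15.5 (SD, n = 4) against 492 ± 133 (SD, n = 4) in WT vehicle. Rhbg after folic acid in WT was log2 -0.79 (SE 0.38, limma adjusted p = 0.225), and -0.10 without WT folic acid 1.

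Car2 (chromosome 3, 14886273 to 14900770, plus strand), which acid-secreting and base-secreting cells share with proximal tubule and red cells, had a mean normalised count after vehicle of 999 ± 236 (SD, n = 4) in WT and 1010.03 ± 116 (SD, n = 4) in G3. After folic acid it was 979 ± 309 (SD, n = 3) and 883 ± 92.2 (SD, n = 4). It ranged from 626 in WT folic acid 1 to 1279.6 in WT vehicle 2. All pairs of groups overlapped, and no difference passed the test.

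**Figure D3:**
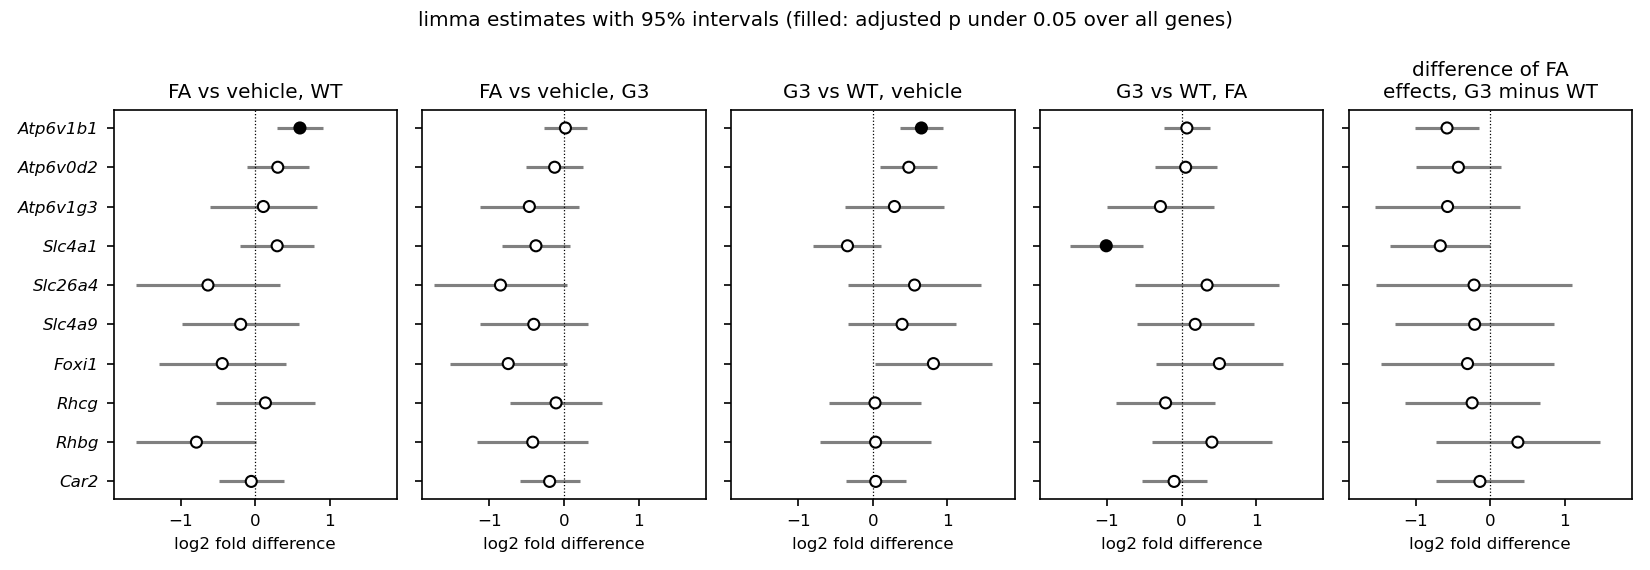
Log2 fold difference (horizontal axis) of each gene in the 5 comparisons, as limma estimates (points) with 95% intervals (lines); filled points have an adjusted p under 0.05 over all genes. The 3 filled points are Atp6v1b1 after folic acid in WT (0.60), Atp6v1b1 in G3 against WT after vehicle (0.65) and Slc4a1 in G3 against WT after folic acid (-1.01), and most other intervals cross 0.

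Apart from the 3 calls, the estimates ran from log2 -0.79 to 0.30 for folic acid in WT, from -0.85 to 0.02 for folic acid in G3, from -0.34 to 0.81 for G3 against WT after vehicle, from -0.28 to 0.51 after folic acid, and from -0.67 to 0.37 for the difference between the effects. The outermost bounds of their 95% intervals were -1.75 and 1.60, so differences of that size are not excluded for single genes. After vehicle 9 of the 10 estimates were positive (median log2 0.34, against 0.02 over all genes), and after folic acid in G3 9 of 10 were negative (median -0.39, against -0.01). Of the positive ones Rhcg, Rhbg and Car2 were near 0 (log2 0.03, 0.04 and 0.04). Levels of several of the 10 genes went together across libraries, so the signs are not 10 separate observations. In WT folic acid gave 5 positive and 5 negative estimates (median 0.03, against 0.01), or 9 and 1 without WT folic acid 1 (median 0.36). For G3 against WT after folic acid 6 were positive (median 0.06), and 0 without that library (median -0.34). With Y-linked RNA as a term 4 of 10 estimates were positive after vehicle (median -0.06), and 2 of 10 for folic acid in G3 (median -0.14).

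**Figure D4:**
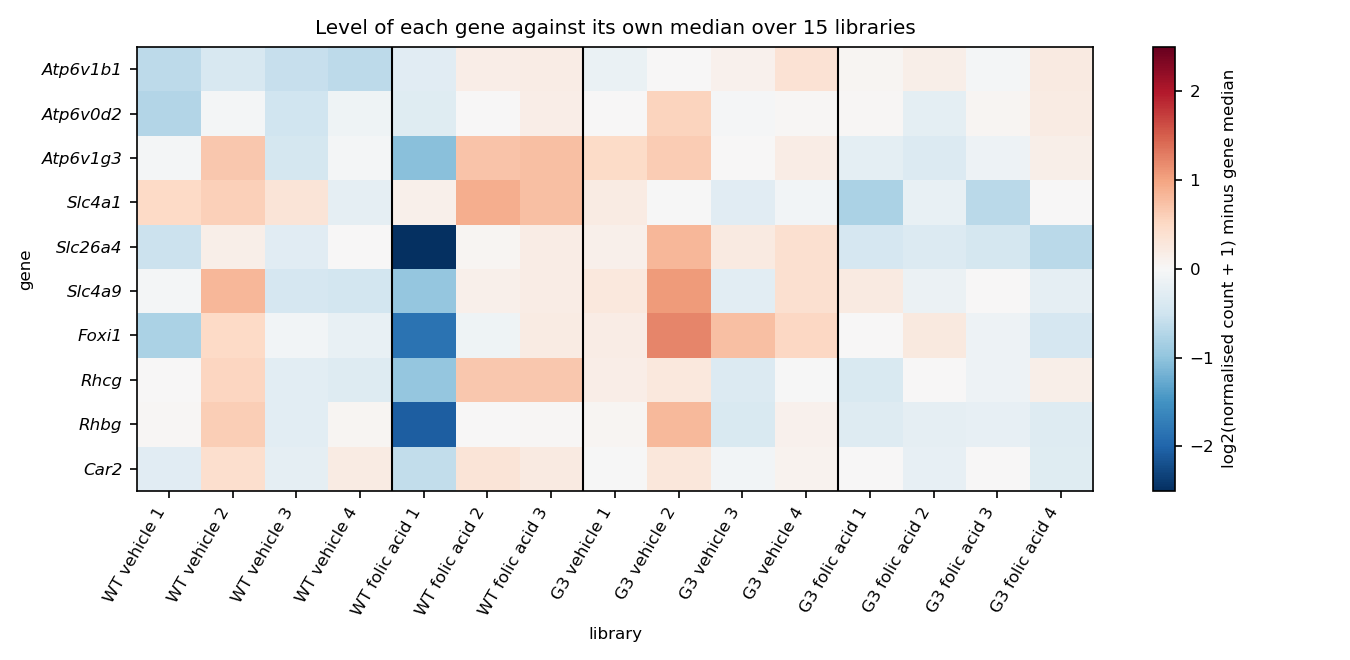
Level of each gene (rows) in each of the 15 libraries (columns, in the order of the groups, black lines between groups) as log2(normalised count + 1) minus the gene's own median over all libraries; blue is lower and red is higher. WT folic acid 1 is the bluest column, with Slc26a4, Rhbg and Foxi1 lowest, while Atp6v1b1, Atp6v0d2 and Slc4a1 are near their medians there; WT vehicle 2 and G3 vehicle 2 are red in most rows.

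The 10 genes were not equally low in WT folic acid 1. Against the mean of WT folic acid 2 and 3, Slc26a4 was 7.06-fold lower, Rhbg 4.25-fold, Foxi1 4.003-fold, Atp6v1g3 3.43-fold, Rhcg 3.15-fold, Slc4a9 2.29-fold, Car2 1.85-fold, Slc4a1 1.64-fold, Atp6v1b1 1.37-fold and Atp6v0d2 1.32-fold. In that library the summed normalised count of the injured tubule list was 869 (168 and 188 in WT folic acid 2 and 3), of the macrophage list 3506 (1271 and 1282) and of the distal and connecting tubule list 1316 (3749 to 9895 in all other libraries). The first 2 lists were high elsewhere too: in G3 folic acid 1, 2 and 4 the injured tubule list was at 830, 612 and 762 and the macrophage list at 2923, 2449 and 3011. Their part in the levels of the 10 genes was not tested. G3 vehicle 2 was at the other end: it was the highest of the 15 libraries for Atp6v0d2, Slc26a4, Slc4a9, Foxi1 and Rhbg, 5 of the 10 genes, against 8.75% of all tested genes.

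Levels were also compared across libraries as a description, on log2(normalised count + 1). Foxi1 went most closely with Slc26a4 (Pearson r = 0.92 over 15 libraries, 0.85 over 14 without WT folic acid 1), and much less with Atp6v1b1 (0.37 and 0.38). Rhcg went most closely with Atp6v1g3 (r = 0.92, and 0.87 without that library). Slc4a1 had r = -0.09 and -0.10 with Foxi1, and 0.61 and 0.79 with Rhcg. The libraries share groups, scaling and WT folic acid 1, so these values say nothing of control. Among genes outside the set, with a mean of at least 20, the 8 most like the mean of the 10 genes' standardised levels included Slc12a3 (r = 0.949 over 15 libraries, 0.915 over 14), Itpr2 (0.941, 0.925), Magi2 (0.929, 0.858), Sema3g (0.927, 0.925), Nox4 (0.924, 0.898), Klhl3 (0.924, 0.903) and Klk1 (0.923, 0.840). Slc12a3 is the thiazide-sensitive cotransporter of the distal convoluted tubule, and Klhl3 regulates that cotransporter. Itpr2, Magi2, Sema3g, Nox4 and Klk1 are not on the distal and connecting tubule list, and no cell type is read from this likeness.

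Of 18 further intercalated cell genes (Atp6v0a4, Aqp6, Kit, Dmrt2, Insrr and Hmx2 among them), all tested, limma called 0 in any comparison, with 1 to 4 at an unadjusted p under 0.05. Their median differences were log2 -0.04 for folic acid in WT, -0.25 for folic acid in G3, 0.35 for G3 against WT after vehicle, -0.07 after folic acid and -0.36 for the difference between the effects. Among 8 principal cell genes, the neighbours of intercalated cells, Aqp4, a basolateral water channel, was called: it fell after folic acid in G3 (log2 -1.73, limma adjusted p = 0.0377) and was lower in G3 than in WT after folic acid (log2 -2.31, limma adjusted p = 0.00684). Its 2 folic acid effects differed (log2 -2.71, limma adjusted p = 0.00514). Part of that difference was a rise of Aqp4 in WT, which did not pass (log2 0.99, limma adjusted p = 0.104). Aqp4 was 79.9 to 218 in WT vehicle and 297 to 306 in WT folic acid, without overlap. The other 7 were not called in any comparison. Of 5 distal and connecting tubule genes limma called 0, with 0 or 1 at an unadjusted p under 0.05.

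Acid-base genes of other segments were called in 1 of the 5 comparisons. Of 10 bicarbonate and proton transport genes outside intercalated cells, Slc4a2, the widely expressed anion exchanger AE2, rose after folic acid in WT (log2 0.65, limma adjusted p = 0.0351), and Car4, the membrane-bound carbonic anhydrase of proximal tubule, fell (log2 -1.06, limma adjusted p = 0.0444). Car4 was 724, 501, 907 and 992 in WT vehicle and 271, 391 and 448 in WT folic acid, without overlap. It was 310 to 568 in G3 vehicle and 717, 408, 826 and 407 in G3 folic acid 1 to 4. Slc4a2 was 130, 157, 114 and 155 in those 4 libraries. G3 folic acid 1 and 3 are rich in Y-linked RNA and low in Xist. Sex and group cannot be told apart in the WT differences of Slc4a2 and Car4. None of the 10 was called in the other 4 comparisons. Of 7 genes of ammonia synthesis and its amino acid supply (Glud1, Pck1 and Slc38a3 among them) limma called 0 in any comparison (0 to 2 at an unadjusted p under 0.05), and of 6 acid-sensing genes 4 passed the filter and 0 were called (0 or 1 at an unadjusted p under 0.05).

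Markers of other kidney cells moved in the same comparisons as Atp6v1b1 and Slc4a1. Of 8 proximal tubule genes, Slc22a6 and Slc7a13 fell after folic acid in WT (log2 -1.50, limma adjusted p = 0.0246, and log2 -6.25, limma adjusted p = 0.0148). In that comparison 5.06% of all tested genes were called. Of the same list Lrp2 and Cubn went the other way (log2 0.39 and 0.31) and Kap the same way (log2 -0.84). None of these passed (limma adjusted p = 0.277, 0.252 and 0.169). Slc7a13 went with Y-linked RNA library by library: its normalised count was 999 to 4484 in WT vehicle, 18.2 to 113 in WT folic acid, 12.7 to 27.0 in G3 vehicle, and 1919, 13.2, 2612 and 1158 in G3 folic acid 1 to 4, of which 2 lacks Y-linked RNA. Slc22a6 was 1932 to 4107 in WT vehicle, 749 to 1423 in WT folic acid and 956 to 1594 in G3 vehicle. In G3 folic acid 1 to 4 it was 2262, 1076, 4008 and 2246. Sex and group cannot be told apart in the differences of any gene in WT or after vehicle. The difference between the folic acid effects takes in both. In G3 against WT after vehicle Slc22a6, Slc7a13 and Kap, an androgen-regulated gene, were lower (log2 -1.30, -7.36 and -1.67, limma adjusted p = 0.0349, 0.00352 and 0.0129). Cubn, the endocytic receptor cubilin, was higher there (log2 0.57, limma adjusted p = 0.0499). In G3 against WT after folic acid Lrp2, the endocytic receptor megalin, was lower (log2 -1.07, limma adjusted p = 0.0205). Slc22a6, Slc7a13 and Kap had positive estimates there (log2 1.05, 3.73 and 0.07) and Cubn a negative one (log2 -0.16). None of these passed (limma adjusted p = 0.104, 0.111, 0.932 and 0.618). The difference between the folic acid effects, G3 minus WT, was positive for Slc22a6 and Slc7a13 (log2 2.36 and 11.10, limma adjusted p = 0.0109 and 0.00244) and negative for Lrp2 (log2 -1.21, limma adjusted p = 0.0273). Within G3 limma called 0 of the 8 after folic acid, with 6 at an unadjusted p under 0.05. Of 4 thick ascending limb genes, Umod, the urinary protein uromodulin, rose after folic acid in WT (log2 0.85, limma adjusted p = 0.0330), and Slc12a1, the sodium-potassium-chloride cotransporter, was lower in G3 than in WT after folic acid (log2 -0.94, limma adjusted p = 0.0273). Of 6 macrophage, 6 injured tubule and 5 urothelium genes limma called 0 in any comparison, with up to 5, 3 and 2 at an unadjusted p under 0.05. The part of any of these cells in the differences of Atp6v1b1 and Slc4a1 was not tested.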

How the data were processed

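RNA of whole kidneys was read from transcript 3' ends with a kit that keeps the strand, per the labels' protocols. The submitters' processing notes name FastQC 0.11.7 for quality, TopHat2 2.0.10 (over Bowtie 1.0.0 and SAMtools 0.1.19) and GRCm38 for alignment, HTSeq 0.6.1 for counting and DESeq2. The annotation release, strand setting and gene filter were not given in the labels or headers. The deposited values are a signal: per the file headers and the values, the authors divided each library's gene counts by its own size factor, since all values are whole multiples of 1 step (100% within 0.001).

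Genes reaching 10 normalised counts in 3 or more libraries (14651 of 19602) were log-transformed, as log2(normalised count + 1), and tested by limma 3.58.1 under R 4.3.3 (mean-variance trend, 1 mean per group, all 15 libraries, Benjamini-Hochberg adjustment over all genes). No sex term was used, since the labelled sex goes against Xist and Y-linked RNA in 10 of the 15 libraries (a level over 100 taken as present). In log2(normalised count + 1), fold changes of low genes are understated. The procedure was tested on simulated data. Alternatives were a term for labelled sex, for the Y share (summed Y-linked RNA over that of the highest library) or for the series of title numbers, fewer libraries, other pseudocounts (0.5 and 5), filters and TMM scaling. The limits between series were set here and are not in the labels. Series a held G3 vehicle 1 to 3, and series b WT vehicle 1 to 3 and WT folic acid 1 to 3. Series c held WT vehicle 4, G3 vehicle 4 and G3 folic acid 1 to 4. Only series c held both genotypes, and in G3 both treatments. Whole reads were accepted as recovered in 12 libraries, where edgeR 4.0.16 and DESeq2 1.42.0 were run, and the other 3 libraries (WT vehicle 4, G3 vehicle 4, G3 folic acid 3) stayed out. TMM factors, planned on whole reads, were taken from the deposited values of all 15 for that reason. Fits without those 3 libraries in limma, and without WT folic acid 1 with the Y share, were chosen after seeing the data.

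Genes named are the 10, the called genes of 19 lists, 3 partner subunits and the 8 most like genes, of which 1 is not reported here. The 10 genes and the lists were chosen with earlier results of these data known. Replicates were compared by chi-square over genes: the most alike, G3 vehicle 3 and 4 (mean 2.76 per gene) and WT folic acid 2 and 3 (2.89), differed by more than sampling noise (next pair 6.71), and each was counted as separate. Gene positions are from GENCODE M21 (GRCm38) and promoters from RefSeq.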

Additional observations from a re-analysis of the deposited data

Results flagged for a closer look

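Atp6v0d2 was at 195 normalised counts in G3 vehicle 2, while G3 vehicle 1, 3 and 4 were at 132, 129 and 134. The gap to the nearest of the others took up 0.917 of the group's range, above Dixon's 95% critical value for 4 libraries. Chance alone passes that value in about 1 in 20 groups, and 30 groups of 4 were looked at. Without G3 vehicle 2, Atp6v0d2 in G3 against WT after vehicle was log2 0.34, the lowest of the 15 values with 1 library left out.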

How the results depend on the processing

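No paired analysis was possible because replicate numbers follow accession order and pair no libraries. Genes called are given in the order folic acid in WT, folic acid in G3, G3 against WT after vehicle, G3 against WT after folic acid, and the difference between the effects, where limma called 741, 40, 425, 337 and 560. With labelled sex as a term the counts that moved were 370, 12, 17 and, for the difference, 103. With the Y share as a term they were 1, 9, 1, 17 and 2, and with the series of title numbers 2, 0, 1, 0 and 3. Without the 2 libraries of mixed Xist and Y-linked RNA 1254, 11, 578 (G3 against WT after folic acid) and 966 (difference) moved. With the 2 compared groups only 441, 203 and 78 (G3 against WT after folic acid) moved, and with a minimum of 50 in 3 libraries 16 genes were called for folic acid in G3. In 12 libraries limma called 48, 2, 50, 32 and 56 and edgeR 61, 0, 62, 19 and 65, while DESeq2 moved to 232, 242 and, for the difference, 273. Without WT folic acid 1 and with the Y share the counts were 0, 129, 1, 54 and 3. Leaving out 1 library at a time gave 99 to 1306, 3 to 360, 81 to 685, 27 to 625 and 253 to 926 genes, and 0 to 1, 0 to 1, 0 to 1, 0 to 2 and 0 to 3 of the 10 genes.

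The call of Atp6v1b1 in WT ended (0 of 10 genes called) with labelled sex, the Y share, the series, the 2 compared groups only, and limma or edgeR in 12 libraries; its log2 stayed at 0.37 to 0.60 in these, with DESeq2 at 0.59 (DESeq2 adjusted p = 0.0324). Its call after vehicle ended (0 of 10) with labelled sex, the Y share, the series (log2 1.03) and all 3 fits in 12 libraries. The call of Slc4a1 ended (0 of 10) with the Y share, the series (log2 -0.32), the 2 groups only and limma or edgeR in 12 libraries, and was kept in DESeq2 (log2 -0.93, DESeq2 adjusted p = 0.0197). With the 2 compared groups only 1 of 10 genes, Slc26a4, was called for folic acid in G3. The 3 calls kept their direction in all alternatives and their side of the threshold with other pseudocounts, filters and TMM. Leaving out 1 library gave log2 0.51 to 0.75, 0.55 to 0.74 and -1.25 to -0.85 for the 3. Signs turned for the difference between the effects of Atp6v1g3 (0.12 with the Y share), Slc4a1 (0.32 with the Y share, 0.071 also without WT folic acid 1) and Slc26a4 (0.61 with labelled sex, 0.18 with the Y share, and -1.14 to 0.28 with 1 library left out), and Atp6v1g3 in G3 against WT after folic acid ran from -0.87 to 0.019 with 1 library left out. Of the 50 differences, 34 changed sign under at least 1 of 29 alternatives, none of them called in either. The cause was not tested. Slc4a9 and Foxi1, with as few as 9 and 10 reads in a library, carry the largest counting error.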
